A study of Homo sapiens with 2 samples.

Results

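The 10 genes described here, MT2A, MT1E, MT1X, MTF1, FTH1, FTL, TFRC, ACO1, IREB2 and HMOX1, handle metals, iron and heme. They were listed by symbol, and all 10 had a value among the 12353 genes of the deposited table. The cells were BJ, an established line of human skin fibroblasts, and the assay was global run-on sequencing (GRO-seq), which reads nascent RNA. The 2 libraries, biological replicates per the labels, form 1 group of untreated cells kept in a serum-containing medium (10% fetal calf serum, heat-inactivated). In this assay, engaged RNA polymerases extend their transcripts in isolated nuclei with a labelled nucleotide, and the labelled RNA is captured and sequenced, so a value reports polymerase on the gene rather than mature mRNA. Values are FPKM (fragments per kilobase of gene, scaled to library size), given for library a and library b and as mean ± SD (n = 2).

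Metallothioneins are small cysteine-rich proteins that bind zinc, copper and cadmium, and their genes are switched on by the zinc-sensing transcription factor MTF1. Ferritin, a shell of heavy (FTH1) and light (FTL) chains, stores iron, and the transferrin receptor (TFRC) brings it into the cell. The iron regulatory proteins, encoded by ACO1 and IREB2, bind hairpins in ferritin and receptor mRNAs and set their translation or decay after transcription, a step that nascent RNA does not report. Heme oxygenase 1, encoded by HMOX1, breaks heme down and releases its iron, and its gene responds to heme and oxidative stress through the repressor BACH1 and the activator NFE2L2.

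The promoters of the metallothionein genes are shown because MTF1 acts through short metal response elements there. The sequences are from RefSeq on GRCh38.p14, which held an entry for 7 of the 10 genes, without MT1E, FTH1 and HMOX1, and for 5 of the 12 metallothionein genes. The FPKM values were made on hg19. Each line gives the 250 bases before the annotated start, 5′ to 3′ on the gene's strand. Capitals mark every match to the metal response element core, searched as TGCACNC and TGCGCNC on both strands. MT2A lies on the plus strand at chr16:56608334-56608583 and MT1X on the plus strand at chr16:56682220-56682469, and both genes had a value. MT1B, on the plus strand at chr16:56651636-56651885, and MT1H, on the plus strand at chr16:56669564-56669813, belong to the same gene cluster and had none.
MT2A: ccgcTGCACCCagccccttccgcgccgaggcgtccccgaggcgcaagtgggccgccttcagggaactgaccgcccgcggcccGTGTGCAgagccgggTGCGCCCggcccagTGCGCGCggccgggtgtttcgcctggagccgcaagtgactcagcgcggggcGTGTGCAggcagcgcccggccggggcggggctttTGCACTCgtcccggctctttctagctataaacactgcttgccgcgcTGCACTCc
MT1X: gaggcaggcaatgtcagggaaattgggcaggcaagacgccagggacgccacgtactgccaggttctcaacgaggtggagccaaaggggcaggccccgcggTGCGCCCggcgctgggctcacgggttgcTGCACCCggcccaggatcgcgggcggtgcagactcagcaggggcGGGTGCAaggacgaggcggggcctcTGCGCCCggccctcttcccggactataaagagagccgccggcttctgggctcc
MT1B: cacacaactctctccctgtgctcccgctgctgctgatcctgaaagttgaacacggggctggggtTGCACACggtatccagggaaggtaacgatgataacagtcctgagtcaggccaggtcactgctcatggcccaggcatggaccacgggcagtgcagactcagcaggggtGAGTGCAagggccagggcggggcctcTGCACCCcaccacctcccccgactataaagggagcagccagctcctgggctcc
MT1H: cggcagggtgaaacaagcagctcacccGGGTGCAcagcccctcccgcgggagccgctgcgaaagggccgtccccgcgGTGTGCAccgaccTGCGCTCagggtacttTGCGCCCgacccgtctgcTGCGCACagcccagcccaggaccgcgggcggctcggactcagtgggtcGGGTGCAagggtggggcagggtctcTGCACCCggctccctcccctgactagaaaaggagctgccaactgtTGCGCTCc

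In the window from 250 bases before the start to 50 after, the MT2A promoter held 8 core matches, and 0.0199% of the 35116 promoter entries held as many or more. MT1X held 4 (0.601% of entries held as many or more), MT1B 3 (2.30%), MT1H 8 and MT4, which also had no value, 3. The average promoter held 0.414. A match to TGCACNC occurred in 12.1% of all entries and one to TGCGCNC in 20.0%. MT1X, MT1B and MT1H shared a pair of matches, a minus-strand match beginning 78 or 79 bases before the start and a plus-strand match at 53, and MT2A had a minus-strand match at 88 and a plus-strand match at 54. MT2A and MT1H each had a further match beginning 8 bases before the start. The TATA box TATAAA, found in 11.5% of entries, began 29 bases before the start of MT2A and 30 bases before those of MT1X and MT1B, and MT1H had no match to it. The numbers of matches therefore did not separate the 2 promoters whose genes had a value from those whose genes had none. A match is a description of letters and not evidence of a bound site.

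**Figure D1:**
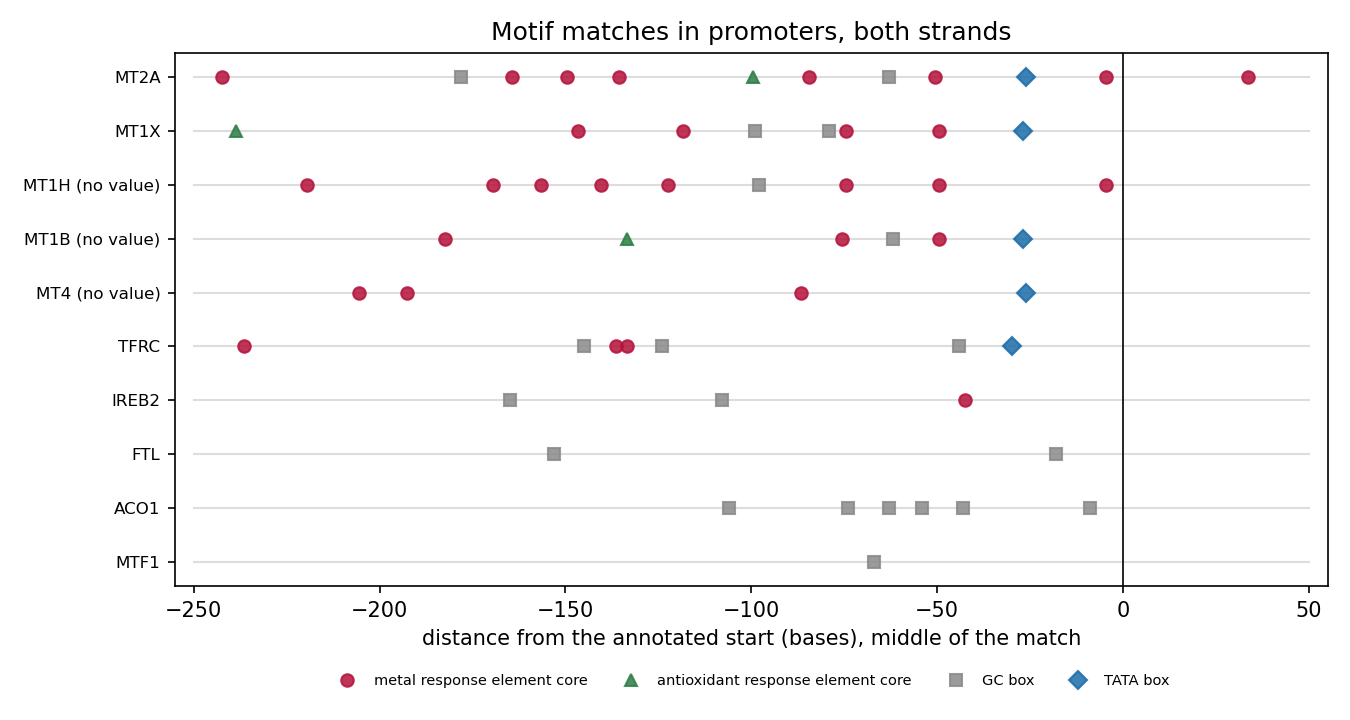
Matches to 4 motifs on both strands in the RefSeq promoters of 10 genes, by distance of the middle of the match from the annotated start in bases; each mark is 1 match, "no value" marks genes absent from the deposited table, and for IREB2 the first of 2 entries is drawn. MT2A and MT1H carry 8 metal response element cores each, and FTL, ACO1 and MTF1 carry none.

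Of the metallothionein genes, MT2A was the highest. Libraries a and b gave 232.46 and 259.31 (246 ± 19.0), 21.0 times the median gene (11.7), a rank of 88 among 12353 genes. MT1E stood at 133.93 and 173.22 (154 ± 27.8), 13.1 times the median gene. MT1X, the third, stood at 14.52 and 22.17 (18.3 ± 5.41), only 1.57 times the median gene. Within a library, MT2A exceeded MT1E 1.61-fold (log2 ratio 0.69 ± 0.151) and MT1X 13.6-fold (3.77 ± 0.318), and MT1X lay 8.45-fold below MT1E (-3.08 ± 0.167). Each of these ratios had the same sign in both libraries and a mean over 2 SD, the criterion used here for values that lie apart. In bulk cultures, a few cells with much transcription and many with little cannot be told apart.

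No other metallothionein gene had a value. The RefSeq order on chromosome 16 places 16 metallothionein genes and pseudogenes from MT4 to MT1X. Of these, 11 are protein-coding and 3 had a value, MT2A, MT1E and MT1X, against 59.8% of all RefSeq protein-coding genes. MT2A and MT1E lie next to each other apart from the pseudogene MT1L, and MT1X closes the cluster at the far end, with MT1M, MT1A, MT1B, MT1F, MT1G and MT1H, none of which had a value, in between. NUP93, the nuclear pore gene beyond MT1X, stood at 11.66 and 10.57. Metallothionein genes are close copies of each other, and the sources used here do not say how reads that map to several of them were counted. The division of reads among MT2A, MT1E, MT1X and the genes without a value is therefore uncertain.

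MTF1, the zinc-sensing activator of these genes, was the lowest of the 10 genes. Its values were 8.60 and 10.62 (9.61 ± 1.43), 0.821 times the median gene, and MT2A exceeded it 25.4-fold (log2 ratio 4.67 ± 0.102). Among 12 listed regulators of metallothionein and HMOX1 transcription, all with values, 10 lay above the median gene by mean FPKM. In library b alone 9 did, as SP1, at 11.41, was below that library's median of 11.70. The list median was 14.2, and USF1, an E-box factor, was highest (61.4 ± 0.502), followed by NFE2L2 (30.7 ± 2.33) and BACH1 (28.3 ± 0.297). MAFK, a small partner of both, was lowest at 9.39 ± 1.94, next to MTF1. The 23 listed genes of zinc and copper transport all had values, against 59.8% of all RefSeq protein-coding genes. The list was chosen with earlier results of these data known and does not hold every SLC30 and SLC39 gene. Its full count is therefore no result about these families. Of the 23 genes, 9 lay above the median gene, with a list median of 10.8. SLC39A7 (43.9 ± 0.339) and SLC39A1 (43.75 ± 0.849), both zinc importers into the cytosol, and COX17, a copper chaperone (35.9 ± 1.66), were highest, and the copper pump ATP7B was lowest at 1.16 ± 0.0778.

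**Figure D2:**
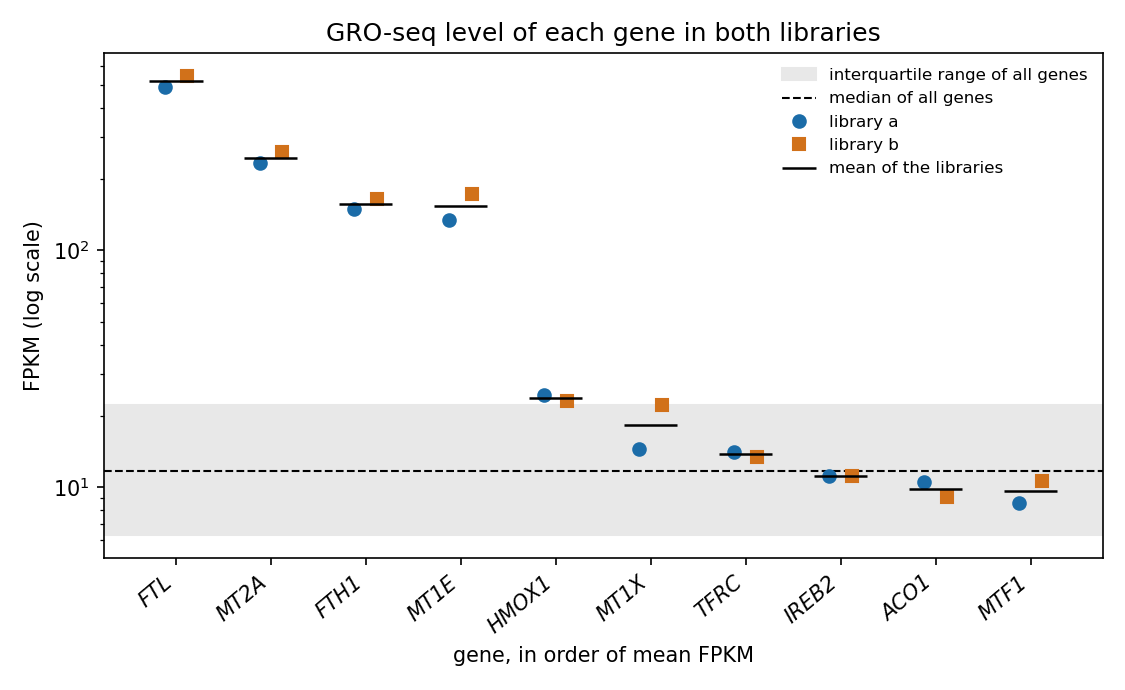
FPKM of the 10 genes in library a (circles) and library b (squares) on a log axis, with the mean of the libraries as a bar, the median of all genes as a dashed line and their interquartile range shaded. FTL, MT2A, FTH1 and MT1E stand above 100 in both libraries, while MT1X, TFRC, IREB2, ACO1 and MTF1 lie inside the shaded range.

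By FPKM, the iron storage genes FTL and FTH1 stood far above the iron uptake receptor gene TFRC. FTL was the highest of the 10 genes, with 489.66 and 543.80 in libraries a and b (517 ± 38.3), 44.2 times the median gene, with rank 42 in each library. FTH1 stood at 149.95 and 164.63 (157 ± 10.4), 13.4 times the median gene, with rank 153 in each library. The heavy chain gene lay 3.28-fold below the light chain gene (log2 ratio -1.71 ± 0.0117), and this was the most even between libraries of the 11 ratios examined. TFRC stood at 14.10 and 13.44 (13.8 ± 0.467), 1.18 times the median gene. FTL exceeded TFRC 37.2-fold (5.22 ± 0.156) and FTH1 exceeded it 11.3-fold (3.50 ± 0.144).

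A comparison between genes depends on the gene length used for the FPKM, which the sources used here do not give. RefSeq names 27 pseudogenes of FTH1 and 20 of FTL, and none of them had a value; how reads shared with them were treated is likewise unknown. On GRCh38, the FTH1 span also overlaps that of BEST1, a chloride channel gene known for its role in the retinal pigment epithelium. BEST1 stood at 116.25 and 124.06 (120 ± 5.52), 1.31-fold below FTH1. Whether the counting used strand is unknown, so reads of the overlapping part could not be assigned to FTH1 or BEST1. FTL overlapped no annotated gene and stood 7.79 times above its neighbour BAX (66.4 ± 0.990) and 10.5 times above GYS1 (49.3 ± 5.43), the protein-coding genes on either side.

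The promoters of FTL, the highest of the 10 genes, and TFRC are shown to set the storage gene beside the uptake gene. FTL lies on the plus strand at chr19:48965059-48965308 and TFRC on the minus strand at chr3:196082091-196082340 of GRCh38.p14. Each line gives the 250 bases before the start, and capitals mark the GC box GGGCGG and the TATA box TATAAA on either strand. The last line gives 20 bases of the FTL transcript, from base 31 to base 50 after the start on the plus strand (chr19:48965339-48965358), with the bulged C and the loop CAGTGN of the iron responsive element in capitals.
FTL: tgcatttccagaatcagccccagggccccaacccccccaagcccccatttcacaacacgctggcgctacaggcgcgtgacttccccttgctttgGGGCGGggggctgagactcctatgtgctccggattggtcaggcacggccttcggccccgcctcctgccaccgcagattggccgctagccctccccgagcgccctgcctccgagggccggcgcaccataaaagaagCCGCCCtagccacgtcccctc
TFRC: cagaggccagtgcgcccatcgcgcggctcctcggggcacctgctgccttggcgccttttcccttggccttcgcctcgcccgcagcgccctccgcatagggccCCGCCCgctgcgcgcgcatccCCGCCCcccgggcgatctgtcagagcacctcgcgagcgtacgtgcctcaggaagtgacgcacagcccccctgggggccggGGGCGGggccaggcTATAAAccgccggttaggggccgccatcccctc
FTL iron responsive element: tgCttcaaCAGTGTttggac

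The 7 genes had 8 promoter entries, since IREB2 has 2 annotated starts. A GC box was held by 7 of the 8 entries, including both shown, against 45.0% of all entries; the second IREB2 entry held no match to any of the motifs searched. TFRC had a TATA box beginning 33 bases before its start, and FTL had no match to TATAAA. TFRC also held 3 metal response element cores (2.30% of entries held as many or more), with 2 of them overlapping each other on opposite strands, and IREB2 held 1 in its first entry and 0 in its second. FTL, ACO1 and MTF1 held none. The iron responsive element pattern, a C, any 5 bases and the loop, was searched on the transcribed strand within the first 50 bases after the start. It was found in FTL alone of the 7 genes and in 1.67% of all entries. The search could not find elements beyond those 50 bases, so it does not show that the TFRC mRNA lacks one, and FTH1 had no entry. As background, the element acts on the ferritin mRNA, after transcription. The antioxidant response element core TGACNNNGC matched in MT2A and MT1X (13.3% of all entries), and the heat shock element GAANNTTC (6.77%) and the E-box CACGTG (7.26%) matched in none of the 7 genes. Motif matches could overlap, as a GC box and a metal response element core do in MT1X.

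Of the 23 listed genes of iron uptake, storage and export, 12 had values, against 59.8% of all RefSeq protein-coding genes. Of these 12 genes, 8 lay above the median gene, with a list median of 18.3. After FTL and FTH1 the highest was PCBP1, an iron chaperone that also binds RNA (117 ± 3.38), and the lowest was the ferroxidase gene CP (2.36 ± 0.247). The iron exporter gene SLC40A1 was 1 of the 11 listed genes without a value. SLC11A2, which carries iron out of endosomes behind the transferrin receptor, stood at 6.93 ± 0.325, and TFRC exceeded it 1.97-fold (log2 ratio 0.98 ± 0.0182). Some listed genes without a value may stand among the 151 identifiers that matched no current symbol. Listed genes and those of the metallothionein cluster were counted by symbol alone, whereas the share of 59.8% also counted matches by Ensembl identifier.

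The genes of the iron sensors stood near the median gene. IREB2 had nearly equal values, 11.21 and 11.15 (11.2 ± 0.0424), 0.956 times the median gene. ACO1, whose product is the cytosolic aconitase when it holds an iron-sulfur cluster, was at 10.50 and 9.09 (9.80 ± 0.997), 0.837 times the median gene. ACO1 was the lower in both libraries, with a log2 ratio to IREB2 of -0.19 ± 0.140, which is under 2 SD, so these genes did not lie apart. It was the only 1 of the 11 ratios that did not. Of the 17 listed genes of iron sensing and systemic control, 14 had values and 6 exceeded the median gene, with a list median of 11.05. The mRNA decay factors ZFP36L1 (91.4 ± 0.134) and ZFP36 (89.3 ± 6.07) were highest, followed by FBXL5, the ubiquitin ligase adaptor that removes IREB2 protein when iron is present (26.9 ± 3.47). The BMP receptor gene BMPR1A was lowest at 5.34 ± 0.184. The hormone gene HAMP, which encodes hepcidin of the liver, had no value.

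Iron-sulfur cluster assembly was listed because it uses the iron that enters the cell and gives ACO1 its aconitase cluster. All 9 cytosolic assembly genes had values, and by mean FPKM all lay above the median gene (8 of 9 in library b alone, where CIAO2A, at 10.79, was below that library's median of 11.70), with a list median of 15.65, led by CIAO1 (34.2 ± 0.361), MMS19 (29.3 ± 1.93) and NUBP1 (24.5 ± 0.438), and lowest for CIAO2A (11.98 ± 1.68). Of 14 listed mitochondrial assembly genes 13 had values and 5 lay above the median gene, with a list median of 9.36. HSPA9 (39.3 ± 0.700), BOLA3 (28.6 ± 7.83) and NFU1 (18.9 ± 1.80) were highest, and LYRM4 was lowest at 1.86 ± 0.559. The difference between these lists was not tested.

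HMOX1 lay above the median gene and just below the gene of its repressor BACH1. HMOX1 gave 24.61 and 23.08 in libraries a and b (23.8 ± 1.08), 2.04 times the median gene, with 22.5% of genes above it. It exceeded HMOX2, which encodes the constitutive heme oxygenase (7.87 ± 0.912), 3.01-fold (log2 ratio 1.59 ± 0.100), and lay 1.19-fold below BACH1 (-0.25 ± 0.0803). Of the 10 listed genes of heme breakdown and transport, 9 had values and 5 exceeded the median gene. The list median was 13.7, with the biliverdin reductase gene BLVRB highest (57.1 ± 5.28), then PGRMC2 (43.7 ± 0.587) and the heme transporter gene SLC48A1 (24.4 ± 1.49), and the exporter gene ABCG2 lowest at 1.21 ± 0.0849. All 8 listed genes of heme synthesis had values, with 3 above the median gene and a list median of 9.96. UROD (52.4 ± 3.61), PPOX (31.5 ± 1.07) and ALAS1, the first enzyme outside erythroid cells (28.3 ± 1.39), were highest, and ALAS2, the erythroid form of the first enzyme, was lowest at 6.21 ± 1.16.

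**Figure D3:**
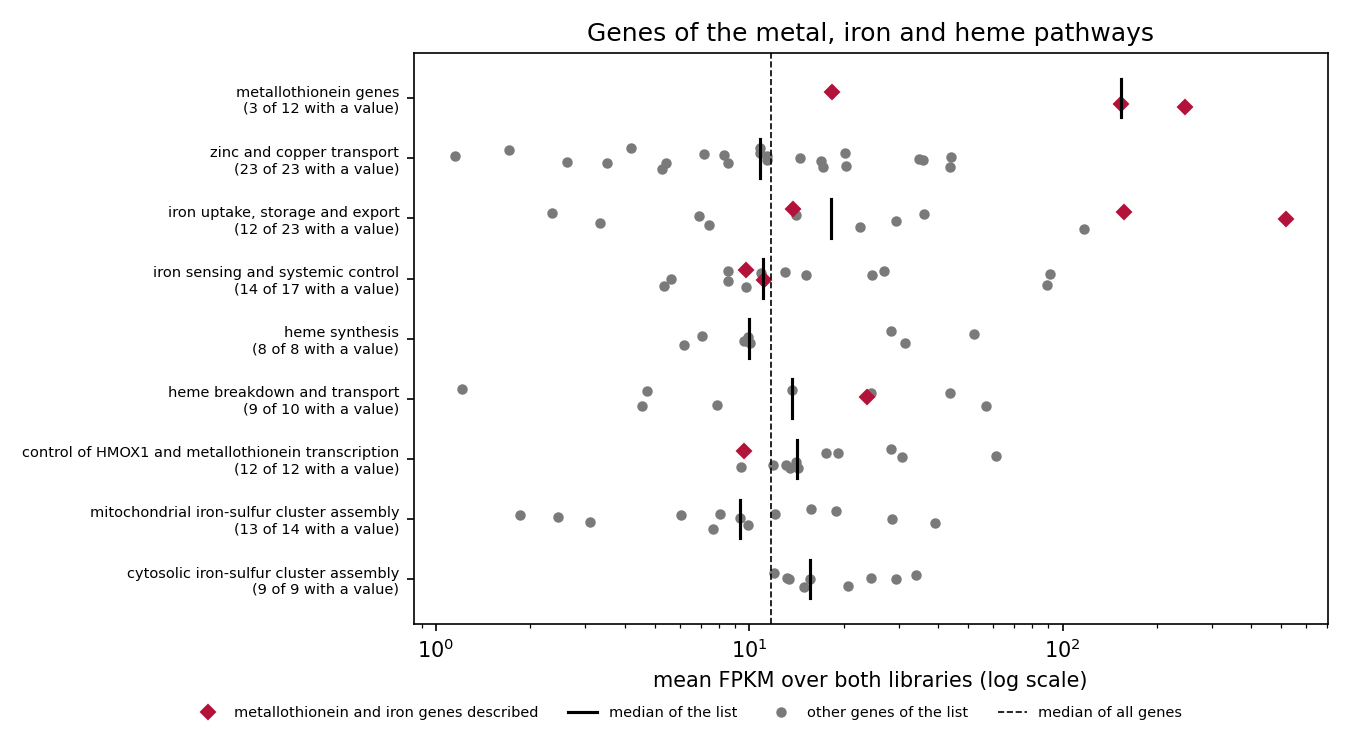
Mean FPKM over both libraries, on a log axis, of the genes with a value in 9 pathway lists; diamonds are the 10 genes described and circles the other genes, black bars are list medians, and the dashed line is the median of all genes (11.7). FTL, MT2A, FTH1 and MT1E stand to the right of every other listed gene.

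In order of mean FPKM the 10 genes were FTL, MT2A, FTH1, MT1E, HMOX1, MT1X, TFRC, IREB2, ACO1 and MTF1, over a 53.8-fold range. Of the 9 neighbouring pairs in this order, 4 lay apart by more than 2 SD: FTL from MT2A (2.10-fold), MT2A from FTH1 (1.56-fold), MT1E from HMOX1 (6.37-fold) and TFRC from IREB2 (1.23-fold). FTH1 and MT1E, and likewise ACO1 and MTF1, changed places between libraries, and the other 3 pairs kept their order with a ratio under 2 SD. By FPKM, the genes thus formed an upper set of 4 and a lower set of 6 with a wide gap between them. This split depends on the gene lengths used for the FPKM, which the sources used here do not give. An FPKM of 100 was reached by 4 of the 10 genes, against 2.43% of all genes, and by 1 of the 93 other listed genes with a value, PCBP1. The median of the 10 genes was 21.1, 1.80 times that of all genes, and 7 of the 10 lay above the median gene. The genes were not a random draw, so these counts are descriptions.

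Among the 10 genes, the libraries differed most for MT1X, MT1E and MTF1. Differences are given as log2 of (FPKM + 0.1) in library b less library a, minus the median of all genes (-0.02). MT1X was 1.53-fold higher in library b by its FPKM (centred log2 difference 0.62) and was the only 1 of the 10 genes past 1.5-fold, against 2.16% of all genes and 0.931% of genes in its own level class (genes were split into 5 classes of equal size by mean FPKM). MT1E followed with 0.39 and MTF1 with 0.32, then MT2A with 0.17, FTL with 0.17 and FTH1 with 0.15. ACO1 (-0.19), HMOX1 (-0.08) and TFRC (-0.05) were higher in library a, and IREB2 was almost even (0.01). On this centred scale 7 of the 10 genes were higher in library b, among them the 3 metallothionein genes and MTF1. IREB2, counted in the 7, was slightly lower in library b by FPKM (11.21 in library a, 11.15 in library b). The count for all genes, 6176 of 12353, is fixed by the centring and is not a measured background. The FPKM of the 3 metallothionein genes summed to 381 in library a and to 455 in library b. As close copies with an unknown sharing of reads, these 3 genes are not separate observations. Genes of the highest class as a whole leaned to library b, with a median of 0.04. When the libraries were given the same distribution of values (quantile normalization), the differences of FTL and FTH1 came to 0.0049 each and that of MT2A to 0.03. For FTL and FTH1 this was fixed in advance, as each held the same rank in both libraries (42 and 153). The difference of MT1E fell from 0.39 to 0.29, while MT1X stayed at 0.63 and MTF1 at 0.33. On this centred scale none of the 93 other listed genes with a value passed 1.5-fold. By FPKM alone LYRM4 did, at 2.25 in library a against 1.46 in library b (1.54-fold, centred log2 difference -0.58).

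**Figure D4:**
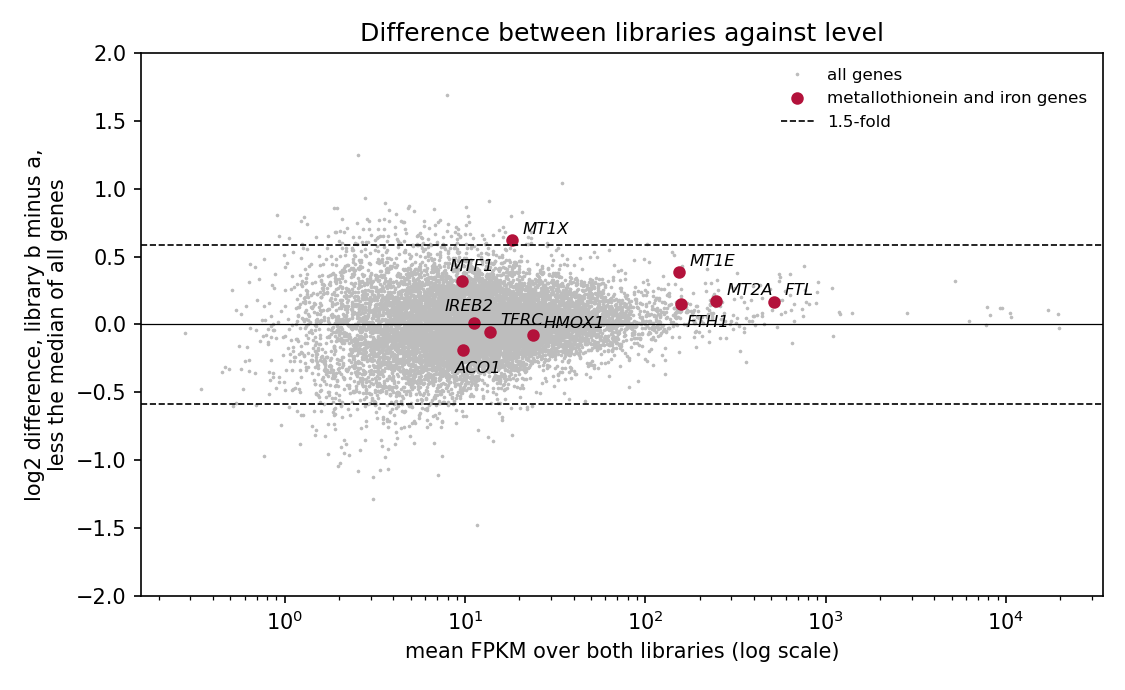
Centred log2 difference, library b minus library a, against mean FPKM on a log axis for all 12353 genes (grey) and the 10 genes (red); dashed lines mark 1.5-fold. MT1X, at 0.62, lies just beyond the upper line, and the other 9 genes lie between the lines.

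The labelled cell type was checked against marker genes. All 10 fibroblast markers had values, against 59.8% of all RefSeq protein-coding genes, and 8 lay above the median gene. COL1A1 (649 ± 48.1) and VIM (539 ± 9.28) were highest, while PDGFRA (8.72 ± 0.686) and DCN (7.34 ± 0.495) lay below the median gene. Of 18 markers of leukocytes and macrophages, hepatocytes, erythroid cells and epithelia, 3 had values. These were the lysosomal membrane gene CD68 (114 ± 2.44), ALAS2 and CDH1 (1.49 ± 0.0141), whereas PTPRC, ALB, HBB and EPCAM had none. The 2 libraries had medians of 11.76 and 11.70, their depth is unknown, and with a single condition no p-value was computed.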

How the data were processed

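The deposited table gives FPKM per Ensembl gene for 12353 genes in 2 columns, computed by the authors. The submitters' processing notes name Bowtie2, HTSeq and hg19. The sources used here do not give gene length, read total, strand use or the handling of multi-mapped reads. No value was 0 (lowest 0.29 and 0.27), so a gene without a value fell under an unknown minimum or was not listed. The columns, named a and b, could not be tied to replicate numbers. Depth cannot be read from FPKM, so no counting interval is given.

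Symbols came from an Ensembl name table (12202 identifiers matched) and gene order, overlaps and promoters from RefSeq on GRCh38.p14. Ratios are log2 of (FPKM + 0.1) within a library. Values lie apart where both libraries give 1 sign and the mean exceeds 2 SD. Pathway genes named are the 3 highest and 1 lowest of each list and the members of the 11 pairs, and 3 listed genes and 1 planned pair are not reported here; neighbours, BEST1 and the iron responsive element were added after seeing the data. The genes and lists were chosen with earlier results of these data known. The count of a list's genes with a value, against 59.8% of all RefSeq protein-coding genes, may therefore be set in part by that choice. Protein identity was planned and not analysed here. Alternatives covered pseudocounts of 1 and 0.01, a minimum mean FPKM of 1, each library alone, other scaling, the mitochondrial genome left out and a shorter promoter window. Scripts ran in Python 3.11.15 with pandas 2.3.3, numpy 2.4.6 and matplotlib 3.10.9, and were tested on simulated data.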

Additional observations from a re-analysis of the deposited data

How the results depend on the processing

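Across the alternatives, no ratio or difference changed sign among those that lay apart or passed 1.5-fold. With a pseudocount of 1 the log2 ratios shrank for MT2A over MTF1 (4.54), HMOX1 over HMOX2 (1.49) and TFRC over SLC11A2 (0.90), and the share of all genes past 1.5-fold between libraries fell to 0.955%, while MT1X remained past it. With mean log2 values in place of medians, the 10 genes stood 1.82 log2 units above all genes, against 0.85 with medians. With each library alone, the list median ran from 10.76 to 11.39 for zinc and copper transport and from 15.57 to 15.99 for cytosolic iron-sulfur assembly. No paired analysis was possible because both libraries belong to 1 group and the columns carry no replicate number. With 2 libraries of unknown depth, an SD is itself very uncertain.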
